A study of Homo sapiens with 17 samples.

Results

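Distal HNRNPU sites without enhancer marks are places where the nuclear protein HNRNPU was mapped on the chromosomes of human pluripotent cells, away from the ends of protein-coding genes and away from H3K4me1 and H3K27ac. They number 348 among the 16737 HNRNPU sites of chromosomes 1 to 22. The other sites comprised 9362 distal sites with a histone mark (distal marked sites) and 7027 sites at gene ends. A site was a summit, the base of highest signal of a called peak, in the first HNRNPU library with a summit of the second library within 250 bp. It was kept when it lay more than 1000 bp from either end of every RefSeq protein-coding gene and had no summit within 500 bp in any of the 4 control libraries for H3K4me1 and H3K27ac. The 348 sites were therefore selected on HNRNPU positions and on the absence of summits in the control histone libraries, so these values describe the choice and are not results.

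HNRNPU, also known as scaffold attachment factor A, is an abundant nuclear protein that binds RNA through its C-terminal part and DNA through its N-terminal SAP domain. It has been linked to chromosome structure, to the localisation of long noncoding RNAs and to RNA processing. H3K4me1 is a histone methylation found at active and primed enhancers, and H3K27ac is an acetylation found at active enhancers and promoters. Distal binding of a nuclear protein is commonly assigned to enhancers, but distal sequence also holds the small RNA genes transcribed by RNA polymerase III, the ribosomal RNA genes transcribed by RNA polymerase I, pseudogenes, internal promoters and satellite-rich stretches around the centromeres.

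The data were CUT&Tag, in which Tn5 transposase, brought to chromatin by an antibody, inserts sequencing adapters into nearby DNA. All 17 libraries were made from H1, an established human embryonic stem cell line. HNRNPU was mapped in 2 libraries from untransfected cells. Both histone marks were mapped in cells that received virus with a short hairpin RNA against luciferase (shLUC, the control, 2 libraries per mark) or against HNRNPU (shHNRNPU#1 and shHNRNPU#2, 2 libraries each per mark), and POLIIS2P was mapped in 2 shLUC libraries and 1 shHNRNPU#1 library. The virus-treated cells were selected with puromycin, which the untransfected cells were not. POLIIS2P is the labels' own name and reads as the elongating form of RNA polymerase II with a phosphorylated serine. The labels' antibody list names neither POLIIS2P nor H3K4me1. In shLUC cells each of the 4 histone lists has peak names with the antibody that its sample title does not give, so H3K4me1 and H3K27ac of shLUC cells are used here only together. The lists give no read depth. Summits per list ranged from 34649 to 35526 in the HNRNPU libraries, from 62449 to 181357 in the shLUC histone libraries, from 40487 to 214333 in the shHNRNPU histone libraries and from 79949 to 87456 in the POLIIS2P libraries. No expression was measured, so neither the cell type nor the loss of HNRNPU could be checked, and HNRNPU itself was not mapped after the knockdown. The labels do not say whether repeats came from separate cultures, so each p-value measures only the spread between libraries.

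Some distal sites lay at internal promoters, meaning transcript starts away from the outer ends of a gene, or at promoters of noncoding genes. The RefSeq sequence table holds windows of 300 bases, from 250 bases before to 50 bases after a transcript start, for 26246 genes on these chromosomes. Of the 348 sites, 15 (4.31%) fell in at least 1 window, compared with 7.37% of the distal marked sites and 53.7% of the gene-end sites. The 6 stretches below show the bases around the HNRNPU summit on the strand of the gene, from RefSeq (GRCh38.p14), cut off before the transcript start. Capitals mark the 21 bases centred on the summit. They were chosen, after their values were seen, to show the difference in base composition between the window of the MIR302CHG gene and the rest.
MIR302CHG, chr4:112648802-112648952, minus strand: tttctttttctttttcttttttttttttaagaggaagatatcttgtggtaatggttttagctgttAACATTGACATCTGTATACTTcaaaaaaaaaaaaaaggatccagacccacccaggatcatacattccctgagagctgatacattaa
DNMT3A, chr2:25252421-25252565, minus strand: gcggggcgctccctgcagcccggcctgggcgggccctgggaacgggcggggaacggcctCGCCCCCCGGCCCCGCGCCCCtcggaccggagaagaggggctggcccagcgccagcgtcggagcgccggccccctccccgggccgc
SEPTIN9, chr17:77373087-77373233, plus strand: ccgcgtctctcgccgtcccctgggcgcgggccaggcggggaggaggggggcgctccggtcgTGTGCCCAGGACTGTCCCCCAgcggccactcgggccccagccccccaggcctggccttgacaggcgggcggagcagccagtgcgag
FBXO31, chr16:87383866-87384016, minus strand: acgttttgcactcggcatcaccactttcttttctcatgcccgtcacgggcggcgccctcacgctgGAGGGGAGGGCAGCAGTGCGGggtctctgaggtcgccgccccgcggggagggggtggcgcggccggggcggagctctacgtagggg
RALGDS, chr9:133121307-133121457, minus strand: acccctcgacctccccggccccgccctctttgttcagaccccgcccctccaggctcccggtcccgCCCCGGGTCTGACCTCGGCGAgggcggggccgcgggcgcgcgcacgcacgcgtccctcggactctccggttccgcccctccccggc
LIPE, chr19:42423586-42423711, minus strand: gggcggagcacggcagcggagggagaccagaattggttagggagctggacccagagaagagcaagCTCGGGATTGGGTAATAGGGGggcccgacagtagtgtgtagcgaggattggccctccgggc

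The 15 sites touched 19 windows, because some starts lie back to back and DNMT3A has another start close by on the same strand. GC content of these windows ranged from 34.7% in MIR302CHG through 51.7% in IFT46 to 86.0% in PRKAG2, and 17 of the 19 exceeded 58.7%, the median of all 33725 windows. The letters GGGCGG, read on either strand (CCGCCC), occurred in 18 of the 19 windows and in 45% of all windows. The window without them was that of MIR302CHG, the host gene of the miR-302 microRNAs of pluripotent cells. CCAAT or its complement ATTGG occurred in 4 of the 19 windows and in 34.4% of all windows, and among the stretches above only that of LIPE held it. A match of letters is a description and does not show that a factor binds there. Some of the 19 windows overlap, so the same bases are counted more than once. Windows holding the other HNRNPU sites were not examined for GC content or letters. The contrasts with all windows can therefore not be called particular to the sites without marks.

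These promoter sites differed among themselves in their other readouts. DNMT3A encodes a de novo DNA methyltransferase, and its site at chr2:25252496 lay 181 bases before an internal start and 24622 bp from the nearest outer gene end. It had a POLIIS2P summit in 2 of the 3 libraries. The sites of SEPTIN9 (a cytoskeletal GTPase), FBXO31 (a substrate receptor of a ubiquitin ligase), RALGDS (an exchange factor for the Ral GTPases) and LIPE (hormone-sensitive lipase) each had one in all 3 libraries. The site of MIR302CHG at chr4:112648877 had none, and it carried no histone summit in any of the 8 shHNRNPU libraries. Of the 15 sites, 9 had a POLIIS2P summit in all 3 libraries and 3 in none, beside 64.6% and 15.4% of all HNRNPU sites.

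The HNRNPU scores of the 348 sites covered nearly the whole range of the lists. Each score is the authors' −log10 significance of a peak and is given here as its percentile among all summits of its own library, because scores of different libraries are not on 1 scale. The median percentile was 50.5 in repeat 1 and 49.9 in repeat 2. In the distal marked sites it was 64.6 and 64.1, and in the gene-end sites it was 80.9 in both repeats. The difference from the distal marked sites was −14.2 percentile points in each repeat (mean −14.2, n = 2 libraries) and is a description without a test. The sites without marks were thus spread around the middle of the lists, while the marked sites were shifted toward stronger scores. Pearson's r between the percentiles of the 2 repeats was 0.595 over the 348 sites, 0.594 over the distal marked sites and 0.681 over the gene-end sites. These correlations are across sites that share 2 libraries and are given as a description.

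**Figure D1:**
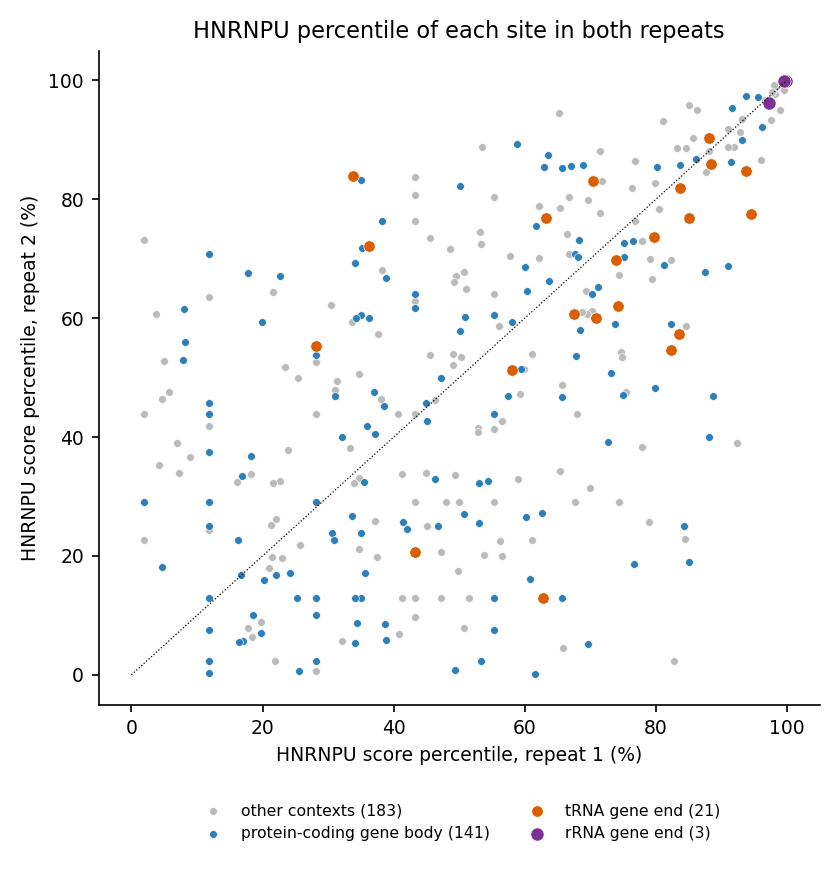
Score percentile of each of the 348 sites among the summits of HNRNPU repeat 1 (x axis, %) and repeat 2 (y axis, %), with 1 point per site and colours for the RefSeq context. The dotted line marks equal percentiles. The 3 sites at rRNA gene ends sit at the top right, the 21 sites at tRNA gene ends lie mostly above the middle in both repeats, and the 141 sites in protein-coding gene bodies are spread over the whole plot.

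The strongest sites lay in varied surroundings. The 10 with the highest mean percentile over both repeats included the strongest summit of both HNRNPU lists, at chr1:634029. It fell inside MTATP6P1, a nuclear pseudogene copy of a mitochondrial ATP synthase gene, and its score was 528 in repeat 1 and 591 in repeat 2. The next was chr21:8988169, which lay 504 bp from the microRNA gene MIR10396A and had percentiles of 99.97 and 99.99. Sites chr21:8438765 and chr21:8434186 lay inside RNA45SN1, a precursor gene of the ribosomal RNAs. Their mean percentiles were 99.88 and 99.68.

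The fifth, chr15:75452002, was the strongest in a protein-coding gene body, that of SIN3A, the scaffold of a histone deacetylase complex (percentiles 99.4 and 99.8). Site chr7:105012839 lay in the noncoding gene KMT2E-AS1, 1366 bp from the nearest end of KMT2E, a chromatin regulator (98.4 and 98.9). Sites chr1:125180191 and chr10:39967625 lay 3608303 and 1248243 bp from any RefSeq gene. Site chr1:10101 lay near the tip of chromosome 1, 1773 bp from the pseudogene DDX11L1, and site chr6:148663 lay 504 bp from the pseudogene SEPTIN14P6. Several of these sequences have near-identical copies elsewhere in the genome, and how reads with several matches were placed is not given in the sources used here, so the position of these sites is uncertain.

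The distances that defined the sites are given once, as a description. The nearest shLUC histone summit was 506 bp away at the closest site, the median was 3500 bp, and 72 sites had one at 1000 bp or less. Among distal marked sites, 247 had their nearest summit more than 250 bp away, with the farthest at 495 bp. The nearest end of a protein-coding gene was 1005 bp away at the closest site, and 37 sites lay within 2000 bp of one.

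Transfer RNA genes lay beside a larger share of the 348 sites than of the other classes. Of the 348 sites, 21 (6.03%) had a tRNA gene end as their nearest noncoding gene end within 1000 bp. The same held for 36 (0.385%) of the distal marked sites, 26 (0.37%) of the gene-end sites and 0.496% of all HNRNPU sites. tRNA genes encode the adaptors of translation and are transcribed by RNA polymerase III. The median distance from the summit to the tRNA gene was 91 bp, and 16 of the 21 summits lay within 200 bp. The RefSeq names gave 13 amino acid codes, none with more than 2 sites, so no single tRNA family made up the group. The 21 sites were on 11 chromosomes, with 4 on chromosome 6. Of the 425 tRNA genes of these chromosomes, 115 (27.1%) had an HNRNPU site within 1000 bp and 35 (8.24%) had one without marks.

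The mean percentiles of the tRNA sites ran from 32.0 to 89.3 with a median of 70.0, beside 47.7 for all 348 sites and 69.0 for all HNRNPU sites. The tRNA sites of the other classes were higher, with medians of 74.4 (distal marked) and 84.4 (gene ends). The highest was chr15:78860250, which lay 312 bp from TRK-CTT1-2, a lysine tRNA gene (percentiles 93.8 and 84.8). Site chr12:98503579 lay 5 bp from TRD-GTC1-1, an aspartate tRNA gene (88.2 and 90.3). Site chr11:76235422 lay 91 bp from TRP-AGG2-4, a proline tRNA gene (88.4 and 86.0). All 3 stood in the upper part of both lists. The lowest was chr6:28597740, 319 bp from TRS-GCT4-1 (43.3 and 20.6), inside the body of SCAND3.

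Ribosomal and other RNA genes added fewer sites. Inside the ribosomal RNA precursor genes of chromosome 21 lay 4 sites, 2 in RNA45SN1 and 2 in RNA45SN3, and all 4 had mean percentiles from 93.3 to 99.88. Distal marked sites inside such genes ranked as high. Their mean percentiles were 99.98 at chr21:8208976 in RNA45SN2, and 97.9 at chr21:8434942, 99.97 at chr21:8442363 and 93.3 at chr21:8443306 in RNA45SN1. Of the 6 HNRNPU sites whose nearest noncoding gene end within 1000 bp was that of an rRNA gene, 3 were without marks. The copies of these genes are near-identical, so a read cannot be assigned to 1 copy with certainty. Small nuclear RNA genes act in splicing and related steps through their products. They were the nearest noncoding end within 1000 bp for 5 sites (1.44%) and for 0.161% of all HNRNPU sites. The highest of these was chr17:43246640 near LOC124904137 (percentiles 96.6 and 96.8). Site chr1:148522843 lay 78 bp from RNVU1-27, a variant U1 gene (91.9 and 88.9), and site chr17:19063736 lay 184 bp from SNORD3B-2, a U3 small nucleolar RNA gene (81.1 and 93.1).

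Long noncoding RNA genes and pseudogenes accounted for more sites than the small RNA genes. Ends of long noncoding RNA genes were nearest, within 1000 bp, for 31 sites (8.91%), close to the 9.17% of the distal marked sites. The highest of these was chr1:16700539 beside LOC124903858 (mean percentile 92.1). Pseudogene ends were nearest, within 1000 bp, for 17 sites (4.89%) and for 2.47% of the distal marked sites. With all classes together, 83 sites (23.9%) had an end of a noncoding gene or pseudogene within 1000 bp. The share was 12.9% of the distal marked sites and 23.4% of the gene-end sites. No test was made of these shares, since the sites of a class are not replicates.

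**Figure D2:**
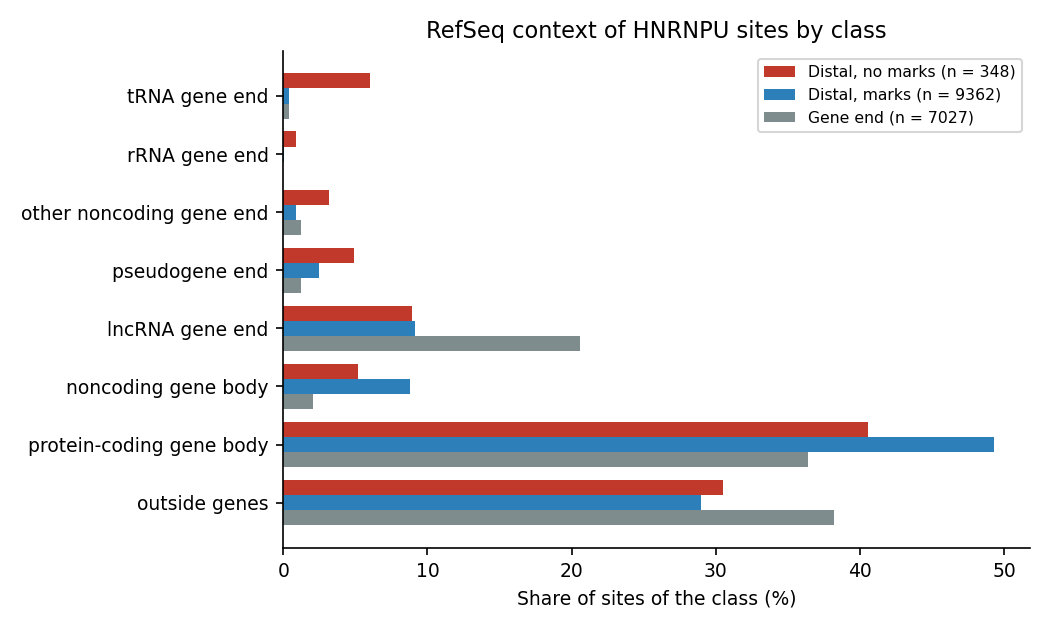
Share of HNRNPU sites (x axis, %) in each RefSeq context (y axis) for the 348 distal sites without marks, the 9362 distal marked sites and the 7027 gene-end sites. A site was placed by the nearest noncoding gene or pseudogene end within 1000 bp, and otherwise by the gene body that covered it. The bars for tRNA gene ends are 6.03%, 0.385% and 0.37%, while those for lncRNA gene ends are 8.91%, 9.17% and 20.6%.

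Protein-coding gene bodies held 164 of the 348 sites (47.1%), compared with 53.9% of the distal marked sites. These 164 sites lay in 161 genes, and 156 of the genes held a single site. The median length of these genes was 73992 bp, and that of all protein-coding genes was 24830 bp. Longer gene bodies cover more bases, and the choice left out sites near gene ends, so nothing is read from this contrast. ADGRL3, an adhesion receptor gene 878010 bp long, held the only group of 3 sites, between chr4:61758260 and chr4:61764596. Its 3 sites had mean percentiles of 62.5, 88.9 and 58.7, each had POLIIS2P in all 3 libraries, and none had a histone summit in shHNRNPU cells. SIN3A, MTRF1 (a mitochondrial translation release factor), FRYL and SCAND3 held 2 sites each. No 2 sites lay within 500 bp of each other, and chaining neighbours at 5000 bp left 339 separate loci, of which 8 held more than 1 site. The pairs in RNA45SN1, SIN3A, RNA45SN3 and the gene-free stretch of chromosome 1 were, after ADGRL3, the densest loci with the highest scores.

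A further 140 sites (40.2%) lay outside every RefSeq gene, beside 32.8% of the distal marked sites and 45.3% of the gene-end sites. Sites over 50000 bp from any gene numbered 18 (5.17%), compared with 2.98% of the distal marked sites. In the longest stretch without a gene on its chromosome lay 9 sites. These stretches held 16 HNRNPU sites in all. On chromosomes 1, 10, 16 and 17 they measured from 3429936 to 21727629 bp and held 8 of the 9 sites, and on chromosome 13 the stretch was 813752 bp long and held 1. Site chr17:26619740 had percentiles of 99.0 and 95, and site chr17:23068816 had 91.0 and 88.7. Sites chr1:143214764, chr16:46399509 and chr16:46394775 had mean percentiles of 88.2, 85.9 and 71.6. Only chr13:55571453 had POLIIS2P in all 3 libraries, and the other 8 sites had it in 1 library at most. No annotation of satellites or centromeres was used here.

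Listed genes held few such sites, as the 348 sites are a small part of the 16737. None of the 33 HNRNPU sites in or nearest to the 20 listed pluripotency genes was unmarked and distal, a count too small to set apart from the share over all sites. Of 33 sites at genes of nuclear architecture, 1 was, at chr5:126845640, 8620 bp from LMNB1, the gene for lamin B1 (percentiles 56.5 and 42.8). Of 24 sites at genes of nuclear noncoding RNAs, 2 were, the MIR302CHG site (82.3 and 69.8) and chr22:26657373 in the body of MIAT, a long noncoding RNA (16.1 and 32.4). The MIR302CHG site also lay in the body of LARP7, which binds the 7SK RNA, and 320 bp from MIR302B.

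POLIIS2P was not used to choose the sites. A POLIIS2P summit lay within 500 bp of 178 sites (51.1%) in shLUC repeat 1, 164 (47.1%) in shLUC repeat 2 and 160 (46.0%) in the shHNRNPU#1 library. The distal marked sites had 69.2%, 64.3% and 63.3%, and the gene-end sites had 89.7%, 88.0% and 88.9%. In each of the 3 libraries the sites without marks had the lowest share. The difference was −17.5 percentage points ± 0.476 (SD, n = 3 libraries) from the distal marked sites and −40.8 ± 2.17 from the gene-end sites. An exact sign-flip permutation test over the 3 libraries, two-sided, gave p = 0.25 for both differences, which is the smallest p the design allows. The HNRNPU scores of the classes also differed, as given above, and their part in this difference was not tested.

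**Figure D3:**
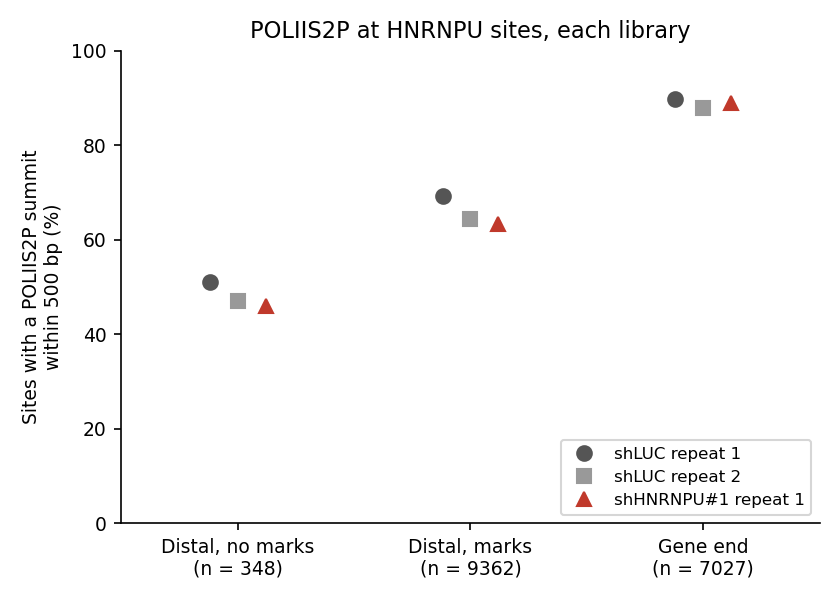
Share of sites with a POLIIS2P summit within 500 bp (y axis, %) for the 3 classes of HNRNPU sites (x axis), with 1 point per library and no error bars. The 3 libraries lie between 46.0% and 51.1% for the distal sites without marks, and their points lie below those of the other classes in each library.

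A POLIIS2P summit was present in all 3 libraries at 127 sites (36.5%), where the share over all HNRNPU sites was 64.6%, and in none at 141 sites (40.5%, beside 15.4% of all HNRNPU sites). Both ends of this scale differed in their surroundings. Protein-coding gene bodies held 79 of the 127 sites with POLIIS2P in all libraries (62.2%) and 47 of the 141 without (33.3%). Of those without, 71 (50.4%) lay outside every gene. The median mean percentile of HNRNPU was 57.2 with POLIIS2P in all libraries and 41.4 with none. In 4 equal groups of the 348 sites ordered by HNRNPU percentile, the share with POLIIS2P in all libraries was 21.8%, 32.2%, 39.1% and 52.9% from lowest to highest. The other HNRNPU sites were not split by gene body or HNRNPU percentile in this way. These relations can therefore not be called particular to the 348 sites. Where a summit was present it was of middling to high rank, with a median percentile of 72.7 to 76.9 in the 3 libraries, beside 79.8 to 80.2 at the distal marked sites.

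The strongest sites fell on both sides. The SIN3A site had POLIIS2P summits at percentiles of 97.0 and 96.0 in shLUC cells and 97.8 in shHNRNPU#1 cells. The KMT2E-AS1 site had them at 98.4, 97.0 and 98.5. The sites in KLF16 (a zinc-finger transcription factor, chr19:1863959) and CDC14A (a phosphatase, chr1:100352247) also had them in all libraries. The SIN3A and KMT2E-AS1 sites thus had POLIIS2P summits of high rank, whereas the ribosomal sites, MIR10396A and the sites chr1:125180191 and chr10:39967625 had none in any library. The strongest site of all, in MTATP6P1, had a POLIIS2P summit at percentile 99.99 in the shHNRNPU#1 library and none in either shLUC library. Site chr1:10101 showed the same, with a percentile of 94.1.

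Of the 21 tRNA sites, 14 and 12 had POLIIS2P in the shLUC libraries and 10 in the shHNRNPU#1 library. It was present in all 3 for 8 sites and absent from all for 6. At the tRNA sites of the other classes it was present in all 3 libraries for 25 of 36 distal marked sites and 19 of 26 gene-end sites. Site chr11:76235422 at TRP-AGG2-4 had percentiles of 86.1 and 91.1 in shLUC cells and 91.1 in shHNRNPU#1 cells.

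POLIIS2P at the 348 sites was close in both kinds of cells. The shLUC share was 49.1% ± 2.84 (SD, n = 2), and the shHNRNPU#1 share was 46.0%, with an exact binomial 95% interval of 40.7% to 51.4% that covers counting error only. The difference of −3.16 percentage points was smaller than the gap between the 2 shLUC libraries, and with 1 shHNRNPU library it has no test. Leaving out shLUC repeat 1 gave −1.15 and leaving out repeat 2 gave −5.17. With only the 20000 highest-scoring summits of each library the shLUC share was 23.4% and the difference turned to 1.29. Of the 348 sites, 19 (5.46%) had a summit in both shLUC libraries and not in shHNRNPU#1, and 11 (3.16%) had the opposite pattern. Over all HNRNPU sites these shares were 4.63% and 2.46%, and 14.4% of the 348 sites differed between the shLUC libraries themselves.

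The 8 histone libraries of shHNRNPU cells were not used to choose the sites either, but their contrast with shLUC cells is fixed by the choice, since every site had 0 summits in all shLUC histone libraries. H3K4me1 summits lay within 500 bp of 39 sites (11.2%) and 46 sites (13.2%) in the shHNRNPU#1 libraries and of 49 (14.1%) and 92 (26.4%) in the shHNRNPU#2 libraries. H3K27ac summits lay at 18 (5.17%) and 16 (4.60%) in shHNRNPU#1 and at 32 (9.20%) and 44 (12.6%) in shHNRNPU#2. The 2 hairpins did not overlap for either mark. The same was true over all HNRNPU sites, where the H3K4me1 shares were 78.5%, 79.9%, 83.2% and 89.2% and the H3K27ac shares 53.2%, 46.0%, 66.1% and 68.0%, so the order of the hairpins was not particular to the 348 sites. For H3K4me1, shHNRNPU#2 minus shHNRNPU#1 was 8.05 percentage points, and for H3K27ac it was 6.03. The SD over all 4 libraries was 6.91 and 3.76. It includes the difference between the hairpins, so it does not measure the spread between repeats. The exact permutation test of 2 against 2 libraries, two-sided, gave p = 0.33 for both, the smallest p it allows. The H3K4me1 difference was 1.87 without the shHNRNPU#2 repeat 2 libraries and 14.2 without those of repeat 1.

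These shares moved with the length of the lists. The H3K4me1 libraries held 147145, 152096, 174625 and 214333 summits in the order given above, which is also the order of their shares. The H3K27ac libraries held 51655, 40487, 75264 and 85142, again in the order of their shares. Among the 20000 highest-scoring summits of each library, H3K4me1 lay at 0 or 1 of the 348 sites and H3K27ac at 4 to 7 sites, while the same summits lay at 25.4% to 27.7% and 34.0% to 41.6% of all HNRNPU sites. These counts are too low to compare the hairpins at equal list length. The summits at these sites ranked low in their lists, with median percentiles of 23.2 to 30.6 for H3K4me1 and 35.6 to 51.6 for H3K27ac, beside 82.1 to 87.4 and 75.8 to 82.1 at the distal marked sites.

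A selection that left libraries out was used to set shLUC and shHNRNPU cells side by side. Taking distal HNRNPU sites without marks in shLUC repeat 1 alone gave 675 sites, which include the 348. In the held-out shLUC repeat 2, 327 of them (48.4%) had either mark within 500 bp. In the 4 shHNRNPU pairs of libraries the shares were 34.4%, 32.4%, 40.9% and 52.7% (mean 40.1% ± 9.16, SD, n = 4). The held-out control lay above both shHNRNPU#1 pairs (34.4% and 32.4%) and between the shHNRNPU#2 pairs (40.9% and 52.7%). The mean of the 4 pairs minus the control was −8.33 percentage points. The SD of the 4 pairs includes the gap between the 2 hairpins, so it does not measure the spread between repeats. The pairs held 272271 summits for shLUC and 198800, 192583, 249889 and 299475 for shHNRNPU, and the shares followed this order. With the repeats exchanged, 563 sites gave 38.2% in shLUC (241586 summits) and 27.7%, 28.1%, 35.9% and 48.7% in the shHNRNPU pairs (mean 35.1% ± 9.81, SD, n = 4). The control again lay above both shHNRNPU#1 pairs and between the shHNRNPU#2 pairs. Here the shares did not follow the order of list length. With 1 held-out control there is no test.

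**Figure D4:**
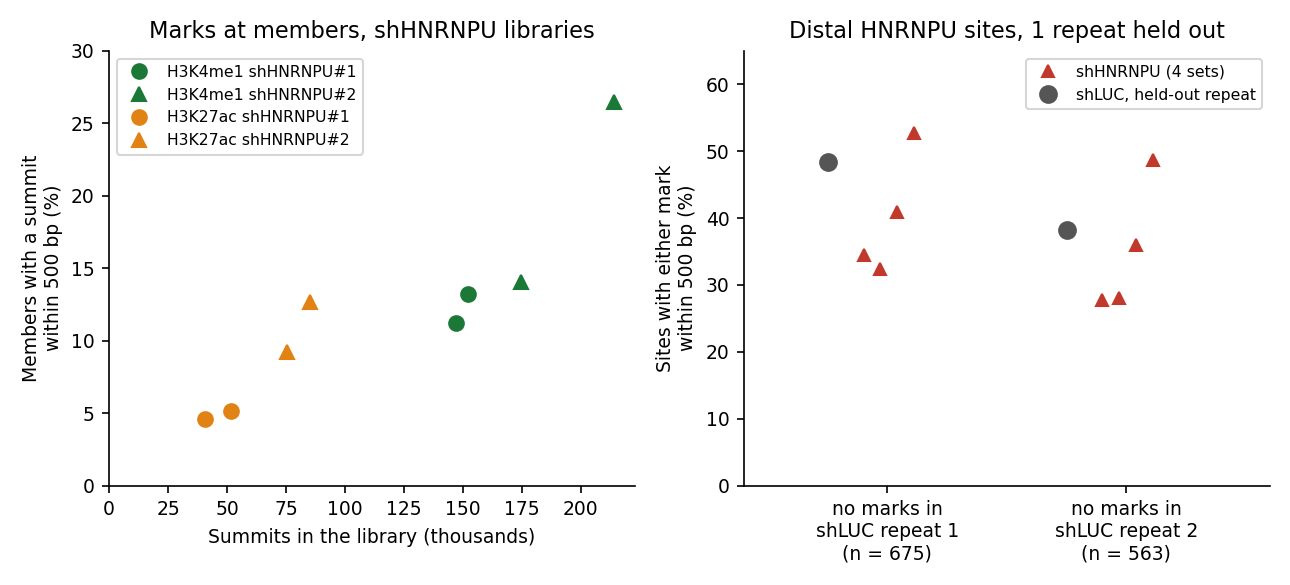
Left, share of the 348 sites with a histone summit within 500 bp (y axis, %) against the number of summits in the library (x axis, in units of 1000), with 1 point per shHNRNPU library. Right, share of distal HNRNPU sites with either mark (y axis, %) when sites were chosen without marks in 1 shLUC repeat, for the held-out shLUC repeat (circle) and 4 shHNRNPU pairs of libraries (triangles). Within each mark the share is higher in longer lists, and the held-out control lies inside the spread of the shHNRNPU pairs.

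No histone summit was found in any shHNRNPU library at 177 of the 348 sites (50.9%), and 87 of these (25% of the 348) also had no POLIIS2P summit. A single library had one at 81 sites. H3K4me1 was present in all 4 shHNRNPU libraries at 10 sites (2.87%) and H3K27ac at 3 sites (0.862%), where the shares over all HNRNPU sites were 69.6% and 35.6%. The choice of sites used the same marks in control cells, so nothing is read from these counts. A shHNRNPU#2 but no shHNRNPU#1 summit was found at 80 sites and the opposite at 24. The shHNRNPU#2 lists were longer for both marks. No share over all HNRNPU sites stands beside the 80 and 24, so nothing is read from them either.

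The sites with H3K4me1 in all 4 shHNRNPU libraries varied in rank from library to library. Site chr12:49342589, 4299 bp from DNAJC22, had H3K4me1 percentiles of 62.6 and 8.66 in shHNRNPU#1 and 42.2 and 46.5 in shHNRNPU#2. Site chr10:102169724, 5854 bp from NOLC1, the gene of a nucleolar protein, had 25.8 and 41.2 in shHNRNPU#1 and 51.7 and 48.1 in shHNRNPU#2. Sites chr10:90925584 near ANKRD1, chr15:79596252 near MINAR1 and chr1:26336332 in CRYBG2 completed the 5 strongest by HNRNPU score. The CRYBG2 site had the widest range of these 5, from 4.50 in shHNRNPU#1 repeat 1 to 84.1 in shHNRNPU#2 repeat 2.

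The KMT2E-AS1 site was the exception for H3K27ac. Its H3K27ac percentiles were 98.7 and 98.1 in shHNRNPU#1 and 99.1 and 97.7 in shHNRNPU#2, and it had H3K4me1 in 3 of the 4 libraries. Its nearest shLUC histone summit was 1299 bp away. The other sites with H3K27ac in all 4 libraries were chr6:12011462 in HIVEP1, a zinc-finger transcription factor gene, with percentiles of 52.2, 24.7, 62.9 and 13.4, and chr9:95729329, with 47.6, 12.9, 50.2 and 65. The latter lay 35603 bp from the nearest gene and had no POLIIS2P summit in any library. Both of these were thus weaker than the KMT2E-AS1 site in every library.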

How the data were processed

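The authors deposited 1 list of peak summits per library. Per the labels' processing notes, cutadapt, Bowtie2, SAMtools, MACS2 and deepTools were used with hg38, without versions or roles, and the control library is not given in the sources used here. Deposited values, in the layout of MACS2 summits, are −log10 significance scores with a lowest value of 1.30 for HNRNPU and POLIIS2P and 2.00 for the histone marks. A deposited list of 48095 HNRNPU intervals carries only scores of 0, so its positions alone were used. Columns of sample values left unmapped numbered 0.

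Positions are the summit base counted from 1 (GRCh38). Gene ends came from the RefSeq table (GRCh38.p14, 18973 protein-coding genes without strand or exons). Its rows on scaffolds, 676 genes of which 153 are protein-coding, carry scaffold coordinates and were left out. Shares were compared over libraries with exact permutation tests (Python 3.11.15, numpy 2.4.6, pandas 2.3.3, scipy 1.17.1). The matching steps were tested on simulated data. Groups were read from sample titles. The paper listed with the series describes mouse cells, and its methods were not used.

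The sites and gene lists were chosen with earlier results of these data known. Named sites were the 10 with the highest mean HNRNPU percentile, the 5 highest with POLIIS2P in all or none of 3 libraries, with a mark in all 4 shHNRNPU libraries and at noncoding gene ends (1 per RNA class), the 5 gene bodies and loci with most sites, and sites at listed genes. Alternatives varied each distance, a score minimum, list length, the repeat that gave positions, each library left out and repeat pairing. Depth is unknown, and a deeper library gives a longer list.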

Additional observations from a re-analysis of the deposited data

How the results depend on the processing

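The number of sites depended most on how marks were defined. It was 210 with HNRNPU repeats within 100 bp, 204 with a minimum score of 3 and 3483 when only the 20000 highest-scoring summits of each shLUC histone library counted as marks, and 404 to 492 without 1 of these libraries. The difference in HNRNPU percentile from the distal marked sites was −10.1 at 100 bp, −14.7 with marks within 1000 bp, −13.8 with gene ends at 2000 bp, −4.26 with the minimum score, −15.8 with the strongest marks and −13.1 with positions from repeat 2, and −15.5 to −14.4 without 1 shLUC histone library. The causes were not tested. The shHNRNPU#1 minus shLUC difference in POLIIS2P share became 1.29 percentage points with the 20000 highest-scoring summits. The hairpin difference in H3K4me1 became −0.287 with the 20000 highest-scoring summits, which reach only 0 or 1 of the 348 sites per library and so say nothing of its direction. The held-out difference ran from −12.5 to 13 when libraries were left out. It turned positive (9 and 13) without 1 or the other histone library of shLUC repeat 2, since the held-out control then holds 1 antibody against 2. The POLIIS2P differences from the other classes kept their sign in all 16 alternatives, which ran from −22.4 to −12.9 (distal marked sites) and −45.6 to −32.6 (gene ends). These alternatives and the gene table with scaffold genes, which gave 348 sites, were chosen after seeing the data. With repeat number as a replicate block, the paired hairpin differences were 8.05 for H3K4me1 and 6.03 for H3K27ac, each with exact p = 0.5, the smallest for 2 pairs. The repeats share only a number. Depth is unknown, so absence of a summit cannot be told apart from a signal under the calling threshold.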

Other observations

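The share of HNRNPU sites that were among the 348 varied between chromosomes, where the whole was 348 of 16737. Chromosome 21 held 9 of the 348 sites among its 176 HNRNPU sites (5.11%). Of these 9, 5 lay in the ribosomal RNA genes or had MIR10396A as the nearest noncoding gene. Chromosome 13 held 13 of 371 (3.50%) and chromosome 4 held 23 of 739 (3.11%), while chromosome 12 held 6 of 798 (0.752%). These are shares of the HNRNPU sites of each chromosome and were not tested. The chromosomes named are the extremes and rest on few sites. Others lay between them, such as chromosome 3 (2.04%) and chromosome 8 (2.14%), so nothing is read from the extremes.

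The deposited list of HNRNPU intervals for both repeats together covered 335 of the 348 sites (96.3%), beside 98.8% of the distal marked sites and 97.4% of the gene-end sites.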
